A study of Bos taurus with 22 samples.

Results

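DNAI7, CEP170, CCDC34 and DNAL1 encode proteins of the cilium, the flagellum and the centrosome, and their transcripts were measured in circulating white blood cells of 22 heifers. These 4 genes were chosen by name from 27607 counted genes, 13526 of which were abundant enough to be tested, and all 4 were among the tested genes. The choice rested on their difference between Fertile and Sub-Fertile heifers in these same samples, so their values for fertility are given as a description with no test. The comparison of breeds did not enter the choice, although the breed value of DNAI7 was already known. The spread of heifers within a group scales the contrast of fertility and so entered the choice. It also scales the tests of breed, so their p-values for these genes are not free of the choice. How the genes vary together within groups was not part of the contrast. The study does, however, name CEP170 and CCDC34 from a factor analysis of these heifers, which draws on how genes vary together.

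The blood came from purebred Angus heifers of about 14 months and purebred Holstein heifers of about 12 months, with 1 library of polyadenylated RNA per heifer. It was drawn when each heifer received its first insemination, after synchronization of the cycle with a progesterone device kept for 7 days in Angus and for 5 days in Holstein. Fertile heifers (5 Angus and 5 Holstein) calved from 1 insemination. The 7 Angus Sub-Fertile heifers did not conceive from 2 inseminations and a bull, and the 5 Holstein Sub-Fertile heifers needed at least 4 inseminations. Breed therefore cannot be told apart from age and synchronization, and Sub-Fertile was defined differently in each breed.

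A cilium is a microtubule-based projection that grows from a mother centriole. Motile cilia and sperm flagella beat through dynein arms, motor complexes built from heavy, intermediate and light chains and fixed along the microtubules of the axoneme. The centrosome is a pair of centrioles in a protein matrix from which microtubules grow, and dividing cells duplicate it once per cycle. Leukocytes have centrosomes but carry no motile cilia, and the abundance of these transcripts in white blood cells is not a measure of ciliary beating.

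DNAI7 is named as an intermediate chain of axonemal dynein. In the ARS-UCD1.2 assembly the Ensembl gene (ENSBTAG00000002972) lies on chromosome 5 from 84818340 to 84887228. DNAL1, a light chain of the outer dynein arm, is ENSBTAG00000015930 on chromosome 10 from 85054840 to 85113986. CEP170, a protein of the subdistal appendages of the mother centriole and of spindle microtubules, is ENSBTAG00000007566 on chromosome 16 from 33885095 to 34015860. CCDC34, a coiled-coil protein needed for the sperm flagellum in humans and mice, is ENSBTAG00000021346 on chromosome 15 from 58043890 to 58088286. All 4 are annotated as protein coding.

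Transcript abundance is given as CPM, the count of a gene for every 1000000 counts of its library. Totals ranged from 12182400 to 49228035 (median 23158374). Counts ranged from 38 to 250 for DNAI7, from 991 to 6452 for CEP170, from 39 to 283 for CCDC34 and from 18 to 159 for DNAL1. CPM takes no account of transcript length, so the 4 genes were not ranked against each other. In bulk RNA, fewer cells of a type and less RNA per cell cannot be told apart.

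Of the 22 libraries, 16 formed 8 close pairs, each made of heifers that were mutual nearest neighbours. The biological coefficient of variation, the variation between libraries beyond counting error, was 0.0377 to 0.0828 within these pairs and 0.0981 to 0.261 in the other 223 pairings. In 4 of the pairs the heifers differed in breed and in 6 they differed in fertility group. The pairs were found from the counts alone, and neither the labels nor the methods of the study name a pairing. How they arose was not tested, and what the breed and fertility values stand for depends on it. If the heifers of a pair are not independent samples, p-values that take each heifer as 1 sample are too small. The main results are therefore also given with the pairs in the model.

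DNAI7 was highest in Holstein Sub-Fertile heifers, with 5.22, 5.90, 6.72, 5.70 and 5.58 CPM in heifers 1 to 5. Holstein Fertile heifers 6 to 10 had 4.66, 5.41, 4.15, 5.26 and 4.04 CPM. The 7 Angus Sub-Fertile heifers ranged from 3.74 to 5.06 CPM with a median of 4.34. Angus Fertile heifers 18 to 22 were lowest, with 3.33, 3.74, 3.74, 3.12 and 4.19 CPM. The Holstein Sub-Fertile heifers all lay above the Angus Sub-Fertile heifers, whereas the ranges of the other neighbouring groups overlapped. What share of all tested genes separates these groups was not determined, so the gap is a description only. The group means were 5.83 ± 0.556 (SD, n = 5), 4.70 ± 0.623 (n = 5), 4.41 ± 0.426 (n = 7) and 3.62 ± 0.415 CPM (n = 5) in this order, and the means of Holstein Fertile and Angus Sub-Fertile heifers lay within 1 SD of each other.

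**Figure D1:**
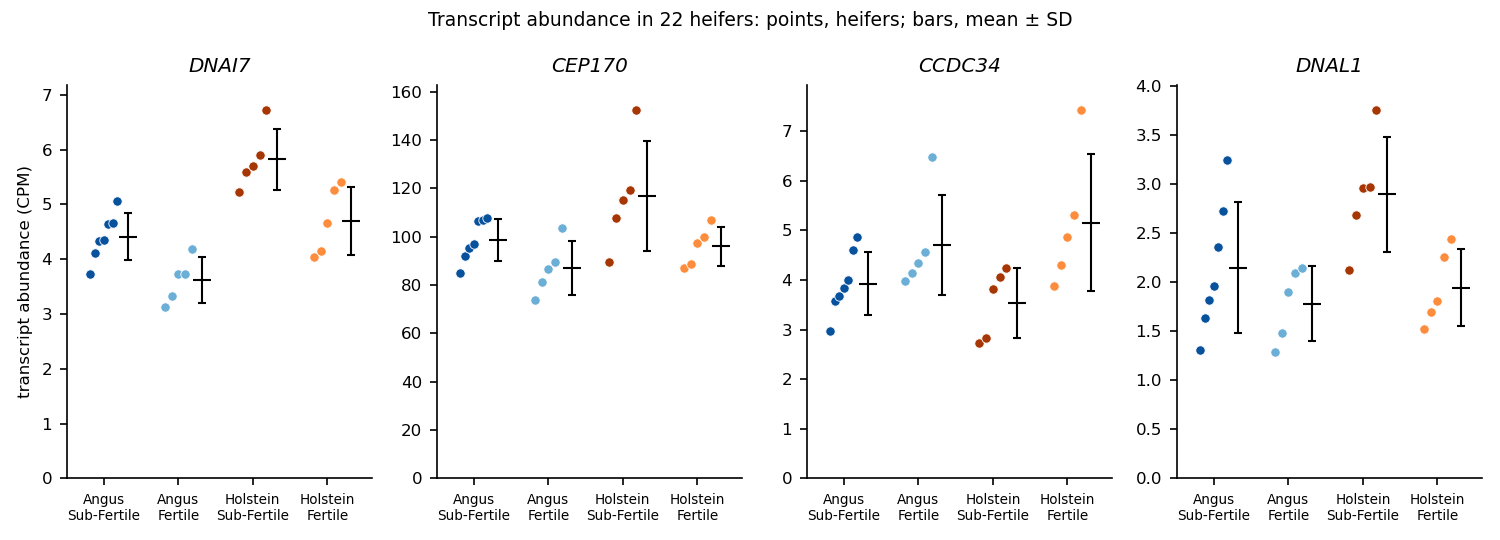
Transcript abundance of the 4 genes in CPM (vertical axis from 0) for each of the 22 heifers by group, with the mean and SD of the group beside the points. The 5 Holstein Sub-Fertile heifers sat between 5.22 and 6.72 CPM of DNAI7 and the 7 Angus Sub-Fertile heifers between 3.74 and 5.06, while all other neighbouring groups overlapped. What share of all tested genes has such a gap was not determined.

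The question of breed was whether white blood cells of Holstein and Angus heifers differed in these transcripts once the fertility group was accounted for. DNAI7 was 1.32-fold higher in Holstein than in Angus within Sub-Fertile heifers and 1.29-fold higher within Fertile heifers. These ratios come from the difference between the group means of log2 CPM. The Holstein heifer had the higher value in 35 of 35 pairings of Sub-Fertile heifers and in 23 of 25 pairings of Fertile heifers. The share of tested genes with such a separation was not determined, so these pairings are a description only. In the quasi-likelihood test of edgeR over all 13526 genes, with fertility group in the model, the log2 fold change of Holstein over Angus was 0.38 (SE 0.082), with an unadjusted p of 0.000103 and a Benjamini-Hochberg adjusted p of 0.437. The lowest adjusted p of any gene for breed was also 0.437, and no gene passed an adjusted p of 0.05. In the background of this comparison, 1439 genes or 10.6% of those tested had an unadjusted p under 0.05, with 4.55% higher and 6.08% lower in Holstein.

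Permuting breed within the fertility groups gave a two-sided exact permutation p of 3.01e-05 for DNAI7, unadjusted for the number of genes, over 199584 regroupings. The Wald test of DESeq2 gave DNAI7 a log2 fold change of 0.39 and an adjusted p of 0.0324, one of 10 genes or 0.0739% of the 13523 with an adjusted p. The call of DNAI7 for breed thus passed the threshold with DESeq2 and not with edgeR. All tests of breed depend on the spread within groups. A low spread was favoured by the choice of DNAI7, so these p-values are not free of the choice. With the close pairs as a random block in limma, the log2 fold change of DNAI7 was 0.32 (unadjusted p = 0.000175, adjusted p = 0.599). With the pairs as fixed blocks in edgeR, which draws the difference from heifers of the same pair alone, it was 0.27 (SE 0.128, unadjusted p = 0.0504, adjusted p = 1).

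From group means of log2 CPM, CEP170 was 1.17-fold higher in Holstein than in Angus within Sub-Fertile heifers and 1.11-fold higher within Fertile heifers. Holstein Sub-Fertile heifers 1 to 5 had 89.6, 152, 119, 115 and 108 CPM, and Holstein Fertile heifers 6 to 10 had 99.9, 97.4, 107, 88.8 and 87.2 CPM. Angus Sub-Fertile heifers ranged from 85.0 to 108 CPM (median 96.8), and Angus Fertile heifers 18 to 22 had 73.9, 104, 86.6, 81.3 and 89.5 CPM. The ranges of all 4 groups overlapped, and heifers 1 and 2, the lowest and the highest of the Holstein Sub-Fertile group, spanned most of the range of the study. The breed log2 fold change was 0.20 (SE 0.075, unadjusted p = 0.0144, adjusted p = 0.437 in edgeR), and the unadjusted exact permutation p was 0.0193. With the close pairs as fixed blocks this fold change was 0.02, and as a random block it was 0.11.

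DNAL1 was the least counted of the 4 transcripts. Holstein Sub-Fertile heifers 1 to 5 had 2.13, 3.75, 2.96, 2.97 and 2.69 CPM, and Holstein Fertile heifers 6 to 10 had 1.80, 2.26, 2.44, 1.70 and 1.52 CPM. Angus Sub-Fertile heifers ranged from 1.30 to 3.24 CPM (median 1.96), and Angus Fertile heifers 18 to 22 had 1.29, 1.90, 2.09, 1.48 and 2.14 CPM. All 4 groups overlapped in DNAL1. Its breed log2 fold change was 0.29 (SE 0.157, unadjusted p = 0.0774, adjusted p = 0.498 in edgeR; unadjusted exact permutation p = 0.0607). It turned to -0.04 with the close pairs as fixed blocks.

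CCDC34 showed no detectable difference between breeds. Holstein Sub-Fertile heifers 1 to 5 had 2.84, 3.82, 4.07, 2.73 and 4.24 CPM, and Holstein Fertile heifers 6 to 10 had 4.31, 3.87, 5.31, 4.86 and 7.42 CPM. Angus Sub-Fertile heifers ranged from 2.96 to 4.86 CPM (median 3.83), and Angus Fertile heifers 18 to 22 had 6.48, 3.99, 4.14, 4.35 and 4.56 CPM. The highest values in the study were those of heifers 10 and 18, which are Fertile heifers of different breeds and form a close pair. The breed log2 fold change was -0.01 (SE 0.130, adjusted p = 0.984 in edgeR; unadjusted exact permutation p = 0.880).

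**Figure D2:**
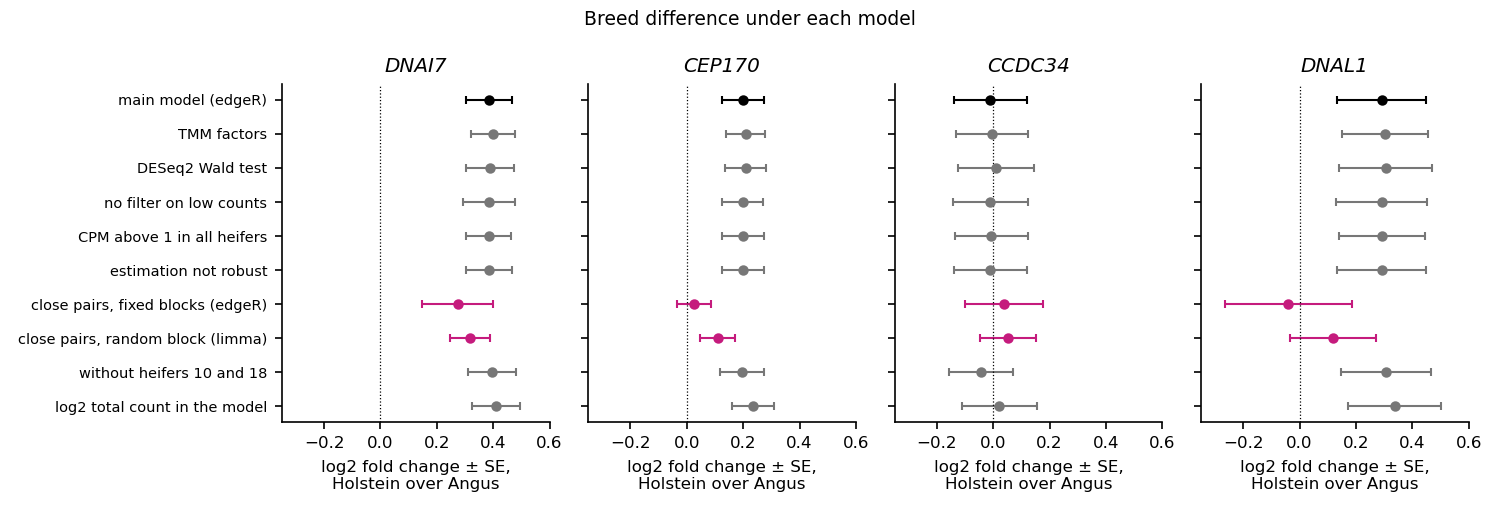
Log2 fold change of Holstein over Angus with its standard error (horizontal axis) for each of the 4 genes under the main model (black), the models with the close pairs (pink) and the other alternatives (grey). DNAI7 stayed between 0.27 and 0.41 in every model drawn, whereas CEP170 fell to 0.02 and DNAL1 to -0.04 when the close pairs were fixed blocks.

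Between fertility groups, which is the contrast that chose the genes, DNAI7, CEP170 and DNAL1 were lower and CCDC34 was higher in Fertile heifers. With breed in the model, the log2 fold change from Sub-Fertile to Fertile heifers was -0.29 (SE 0.082) for DNAI7, -0.23 (SE 0.075) for CEP170, -0.40 (SE 0.158) for DNAL1 and 0.39 (SE 0.130) for CCDC34. Over all genes, 354 or 2.62% had an unadjusted p under 0.05 for fertility, and the lowest adjusted p in edgeR was 0.9999. The Fertile heifer had the higher DNAI7 value in 2 of 35 pairings within Angus and in 2 of 25 within Holstein. For CCDC34 the Fertile heifer was higher in 26 of 35 and 23 of 25. With the close pairs as fixed blocks the fold changes were -0.21 for DNAI7, -0.03 for CEP170, 0.08 for CCDC34 and 0.05 for DNAL1, the last with its sign reversed.

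Whether the difference between fertility groups depended on breed was tested by the interaction of both terms, a comparison that the choice of genes did not use. The interaction was -0.04 (SE 0.169) on the log2 scale for DNAI7, -0.11 (SE 0.152) for CEP170, 0.29 (SE 0.259) for CCDC34 and -0.35 (SE 0.315) for DNAL1. None of the 4 passed, with adjusted p in edgeR of 0.944, 0.803, 0.666 and 0.671, nor did any have an unadjusted p under 0.05, beside 10.4% of all genes that did. With the close pairs as a random block in limma the interaction of DNAL1 was -0.69, with an unadjusted p of 0.00428 and an adjusted p of 0.329. In the same model CCDC34 had 0.36 (unadjusted p = 0.0342), DNAI7 had -0.11 (unadjusted p = 0.376) and CEP170 had -0.08 (unadjusted p = 0.450). Of all 13526 genes, 1260 had an unadjusted p under 0.05 for the interaction in this model, and no gene passed an adjusted p of 0.05. From group means of log2 CPM, DNAL1 was 0.848-fold in Fertile against Sub-Fertile Angus heifers and 0.674-fold in Holstein heifers.

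The close pairs allowed each transcript to be read in 2 heifers whose libraries were otherwise much alike. For DNAI7, the median gap between the heifers of a close pair was 0.27 on the log2 CPM scale, against 0.31 in the other 223 pairings. The other 3 transcripts were closer within the pairs, with median gaps of 0.09 against 0.21 for CEP170, 0.15 against 0.30 for CCDC34 and 0.23 against 0.46 for DNAL1. DNAI7 was thus the member whose values in close pairs were nearly as far apart as those of the other pairings.

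In the pairs that crossed breeds, the Holstein heifer had the higher DNAI7 value in 3 of 4. Of these pairs, heifers 7 and 16 and heifers 8 and 12 also differed in fertility group. They are counted again among the pairs that crossed fertility groups. Heifer 1 had 5.22 CPM against 4.34 in Angus heifer 11, heifer 7 had 5.41 against 4.33 in heifer 16, and heifer 10 had 4.04 against 3.33 in heifer 18. The exception was heifer 8, with 4.15 CPM against 4.64 in heifer 12. The mean difference over these pairs was 0.17 on the log2 scale, with a range from -0.16 to 0.32. In the pairs that crossed fertility groups, the Sub-Fertile heifer was the higher in 5 of 6, although in heifers 14 and 20 both values were 3.74 CPM after rounding. CEP170 and DNAL1 were split evenly in both kinds of pair, with 2 of 4 and 3 of 6, and their mean differences lay between -0.02 and 0.01. Single pairs differed more. For DNAL1 the range was -0.41 to 0.24 across breeds and -0.57 to 0.67 across fertility groups. For CEP170 it was -0.13 to 0.24 and -0.13 to 0.10. CCDC34 was higher in the Holstein heifer in 3 of 4 pairs and in the Fertile heifer in 4 of 6.

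**Figure D3:**
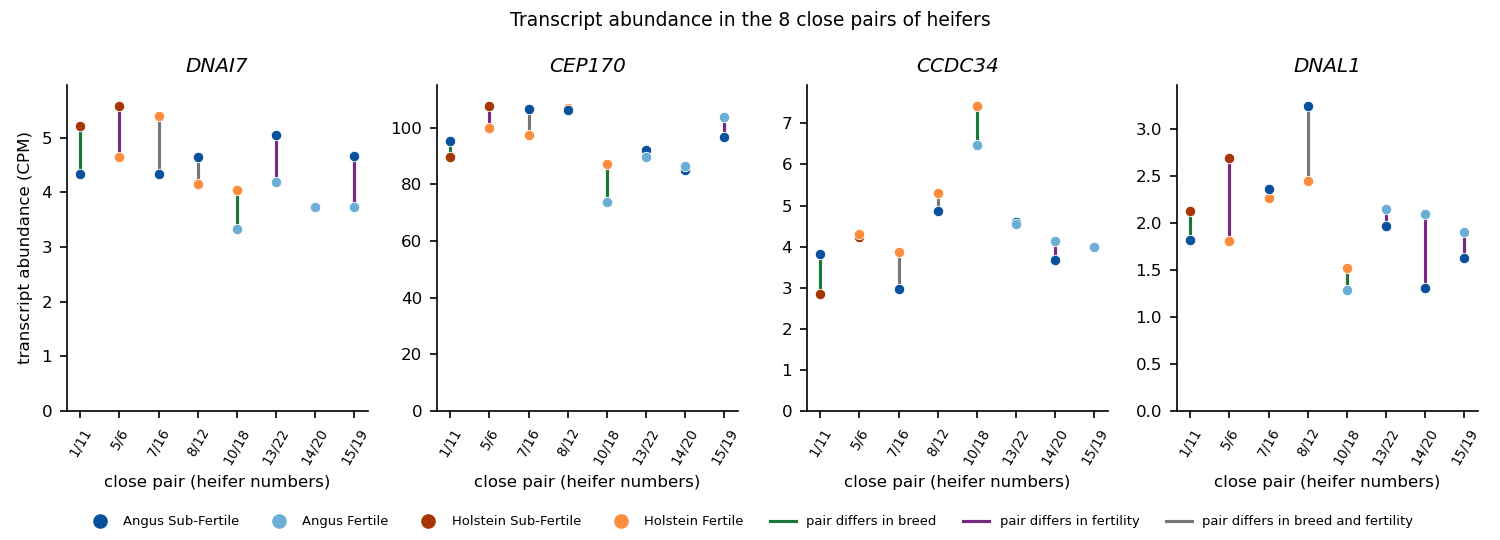
Transcript abundance in CPM (vertical axis from 0) of the 4 genes in the 8 close pairs of heifers (horizontal axis, heifer numbers), with points coloured by group and lines by what the heifers of the pair differ in. For DNAI7 the Holstein heifer was higher in 3 of 4 pairs that crossed breeds, and CEP170 was split 2 to 2. Pairs 7/16 and 8/12 among them also crossed fertility groups.

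DNAI7 also varied little between heifers of one group. Its biological coefficient of variation was 0.126 as estimated by edgeR, which draws each gene toward the trend of genes of like abundance. Of 1108 genes of like abundance, within 0.5 log2 CPM, 0.722% had a lower one (median 0.231). The coefficient was 0.129 for CEP170, 0.203 for CCDC34 and 0.238 for DNAL1, and 67.0%, 34.2% and 34.2% of genes of like abundance lay below them. Within the groups the SD of DNAI7 was 9.55% to 13.3% of the mean, where counting error alone gives 8.46% to 10.5%. The contrast that chose the genes is scaled by this spread, so a low spread was favoured by the choice and is a description only.

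Within groups, CEP170 and DNAL1 rose and fell together. After subtraction of the group means, the log2 CPM values of both transcripts had a Pearson r of 0.79 and a Spearman rho of 0.84 over 22 heifers (permutation p = 5.00e-05 and 1.00e-05, the latter the smallest that 100000 resamples can give, and 0.000300 and 6.00e-05 after adjustment over the 6 pairs of genes). Without the 2 heifers farthest from the median of CEP170, r was 0.79. With the mean of each close pair as 1 point, r was 0.83 over 14 points (adjusted p = 0.000660 by permutation). The relation was also present within each breed, with r = 0.78 in 12 Angus heifers (permutation p = 0.00289) and 0.89 in 10 Holstein heifers (permutation p = 0.000120). For the other 5 pairs of genes r lay between -0.13 and 0.42, the largest for DNAI7 and DNAL1 (adjusted p = 0.162 by permutation), and none passed.

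CCDC34 followed the markers of proliferating cells. The mean log2 CPM of 14 markers, among them the mitotic genes MKI67 and CCNB1, had an r of 0.78 and a rho of 0.72 with CCDC34 within groups (n = 22, adjusted p = 0.000400 and 0.00680 by permutation over 20 relations of genes and marker lists). The summed CPM of these markers ranged from 638 to 998 in Angus Sub-Fertile, 567 to 2043 in Angus Fertile, 654 to 1055 in Holstein Sub-Fertile and 574 to 2161 in Holstein Fertile heifers. Heifers 10 and 18 were the highest in both measures, and without them r was 0.54 (n = 20, adjusted p = 0.147 by permutation), so the call rested on this pair. By pair means r was 0.73 and rho 0.64 over 14 points (adjusted p = 0.0430 and 0.151 by permutation). Within breeds r was 0.78 in both Angus (n = 12, permutation p = 0.00300) and Holstein heifers (n = 10, permutation p = 0.00656). The rho within breeds was 0.58 and 0.62 (permutation p = 0.0535 and 0.0593). Each breed holds 1 heifer of this pair, so the breeds are no check apart from it. The median fertility log2 fold change of the 14 markers was 0.41, the sign that CCDC34 had, beside 0.09 for all 1229 named genes. Named genes and CCDC34 were both selected on fertility in these heifers, so the shared sign is a description only. The part of the markers in the CCDC34 difference was not tested.

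Among the 5 marker lists with named genes, DNAI7 had its highest correlation with the neutrophil markers CSF3R, MMP9 and TGM3, genes of the granulocyte colony-stimulating factor receptor, a gelatinase and a transglutaminase. Within groups r was 0.58 and rho 0.55 (n = 22, adjusted p = 0.0418 and 0.0900 by permutation), 0.72 over 14 points by pair means (adjusted p = 0.0430 by permutation) and 0.61 without heifers 10 and 18 (adjusted p = 0.0856 by permutation). On variance-stabilized counts r was 0.48 and the call was lost (adjusted p = 0.202 by permutation). Within breeds r was 0.61 in Angus (n = 12, permutation p = 0.0341) and 0.56 in Holstein (n = 10, permutation p = 0.0916). The rho was 0.43 and 0.54 there (permutation p = 0.168 and 0.114). CSF3R, MMP9 and TGM3 were the 3 of 13 listed neutrophil markers that carried a name. Like DNAI7, they were selected on fertility in these heifers. No marker of monocytes, T cells or natural killer cells carried a name, so the ranking covers the remaining lists only. The summed CPM of the 3 markers ranged from 229 to 527 in Angus Sub-Fertile, 241 to 390 in Angus Fertile, 261 to 650 in Holstein Sub-Fertile and 118 to 352 in Holstein Fertile heifers, with overlap between all groups. DNAI7 also had an r of 0.47 with the B cell adaptor BANK1, of -0.42 with the platelet markers and of -0.34 with those of eosinophils and basophils (adjusted p = 0.196, 0.244 and 0.332 by permutation). With the log2 total count of the library, the 4 genes had r between 0.14 and 0.32 within groups. The part of the cell composition in the breed difference of DNAI7 was not tested.

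**Figure D4:**
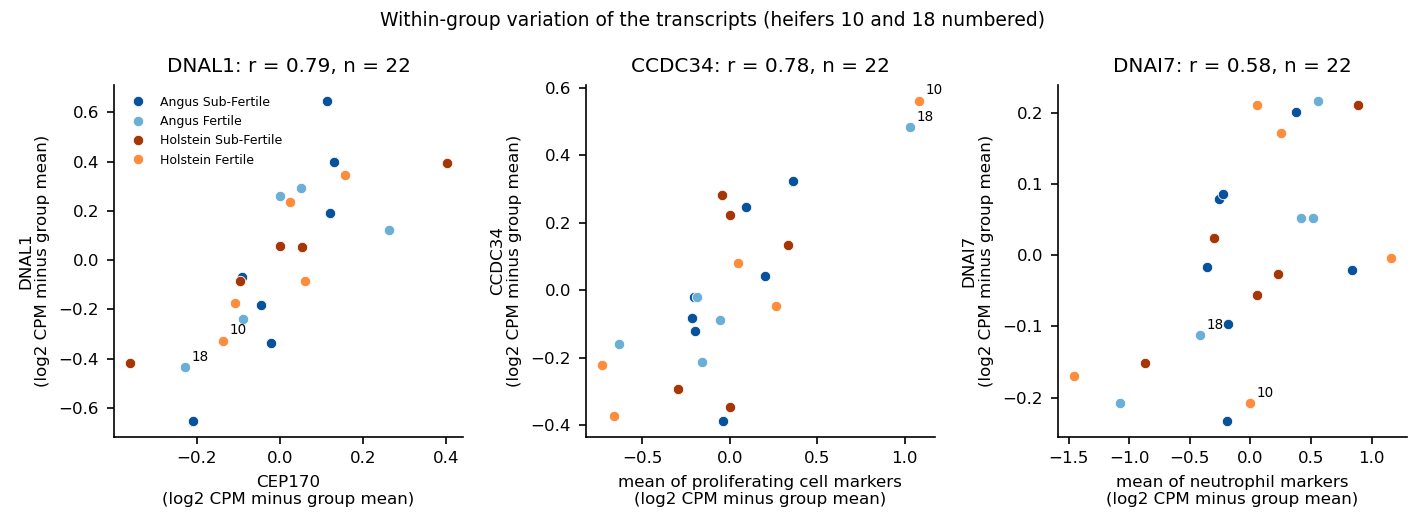
Log2 CPM of DNAL1, CCDC34 and DNAI7 (vertical axes) against CEP170, the mean of 14 proliferating cell markers and the mean of 3 neutrophil markers (horizontal axes), each minus its group mean, for 22 heifers coloured by group. The r values were 0.79, 0.78 and 0.58, and heifers 10 and 18 stand at the upper right end of the CCDC34 plot.

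The labelled cell type could be checked only in part, because names were at hand for 1229 of the 27607 gene identifiers, those with the strongest fertility differences in a table of the study. CSF3R had a mean of 283 CPM and BANK1 of 352 CPM, whereas none of the 5 pan-leukocyte and none of the 13 T cell markers carried a name. Of 17 markers of ciliated epithelium, EPCAM carried a name, with a mean of 1.22 CPM.

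The transcripts most like each gene were sought as the named genes with the highest r of within-group log2 CPM over 22 heifers. Those of DNAI7 were the nuclear receptor gene NR2C1 (r = 0.73), the hypoxia-inducible factor gene EPAS1 (0.71), ZMYM4 (0.69), the deubiquitinase gene USP34 (0.68) and SNRNP48 (0.68). Genes most like CEP170 included KMT2E (0.90), ZC3H7A (0.86), JMJD1C (0.83) and the transcription factor gene RFX7 (0.82). CCDC34 was most like LARP1B (0.88), the COPII coat gene SEC23B (0.86), LRRC59 (0.86), the mitotic histone kinase gene HASPIN (0.85) and the thioredoxin gene TXN (0.84). DNAL1 was most like the kinase gene MAP3K1 (0.85), the general transcription factor gene GTF2A1 (0.82), SKIL (0.81), RNF111 (0.81) and MARCHF7 (0.81). The neighbourhood of DNAI7 was the smallest: 14 of 13525 genes had an r above 0.7 with it, against 220 for CEP170, 292 for CCDC34 and 88 for DNAL1. These correlations share the libraries and their close pairs and are given with no test. For DNAI7 the SD within groups was 9.55% to 13.3% of the mean, where counting error alone gives 8.46% to 10.5%. Such error lowers r, so the size of its neighbourhood is not read as a trait of the gene.

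ETFRF1 stands next to DNAI7 in the RefSeq annotation (ARS-UCD2.0), in which IRAG2 overlaps DNAI7. ETFRF1, an assembly factor of the electron transfer flavoprotein, had a breed log2 fold change of 0.21 (SE 0.095, adjusted p = 0.450 in edgeR) and a within-group r of 0.11 with DNAI7. IRAG2 carried no name in the counts. The sources do not say whether strand was taken into account in counting, and without strand reads of DNAI7 and of the overlapping gene cannot be told apart.

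Other genes of the cilium and the centrosome came from 9 lists of 285 symbols, of which 30 carried a name and were tested, 27 of them besides DNAI7, CEP170 and DNAL1. CCDC34 is on none of the lists. At an unadjusted p under 0.05, 6 of the 27 were higher and 1 was lower in Holstein heifers, where among all 1229 named genes 20.3% had such a p, 13.3% higher and 7.08% lower. The median breed log2 fold change of the 27 genes was 0.08, beside 0.02 for named genes and -0.01 for all tested genes, and none passed an adjusted p of 0.05. With the close pairs as fixed blocks 0 of the 27 and 13 of the named genes had an unadjusted p under 0.05, 6 higher and 7 lower, and the median of the 27 was 0.00. With the pairs as a random block the counts were 4 higher and 1 lower, beside 86 and 31 of the 1229 named genes. Without heifers 10 and 18 they were 5 and 1, beside 155 and 132, and with DESeq2 they were 7 and 1, beside 222 and 82.

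Among transport genes, ARL6, a small GTPase that recruits the BBSome to membranes, had a breed log2 fold change of 0.35 (SE 0.111, unadjusted p = 0.00430), the value nearest to that of DNAI7. IFT74, of the intraflagellar transport complex that carries tubulin, had 0.23 (SE 0.111, unadjusted p = 0.0471), IFT172 had 0.11 and IFT20 had 0.03. Of 24 listed assembly factors of axonemal dynein 2 carried a name, DNAAF10 with 0.00 and RUVBL1 with -0.06. No gene of the list of 50 radial spoke, central pair and nexin link genes carried a name.

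The cytoplasmic dynein genes went in both directions. DYNLT3, a light chain, was higher in Holstein by 0.25 (SE 0.076, unadjusted p = 0.00357), and DCTN3, a subunit of the dynactin shoulder, fell by 0.17 on the log2 scale (SE 0.047, unadjusted p = 0.00164). PAFAH1B1, the dynein regulator LIS1, had 0.05.

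For centriole and centrosome genes, CEP135, a protein of the centriolar cartwheel, had 0.20 (SE 0.080, unadjusted p = 0.0182), and NIN, the microtubule anchor ninein of the subdistal appendages, had 0.13 (SE 0.062, unadjusted p = 0.0442). STIL and CEP120 of the duplication list had 0.11 and 0.08, with unadjusted p of 0.466 and 0.182. In the pericentriolar list of 9 named genes, NIN was the one with an unadjusted p under 0.05, and the scaffold gene AKAP9 (0.12), CEP70 (0.12) and CEP55 (0.16) had larger p-values. RFX7, a transcription factor of the family whose members RFX2 and RFX3 drive ciliary genes, had 0.21 (SE 0.057, unadjusted p = 0.00133), while E2F5 and TFDP1 had 0.07 and 0.02. In the model with the interaction, 5.45% of named genes had an unadjusted p under 0.05 for the interaction, and none of the 27 listed genes did.

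**Figure D5:**
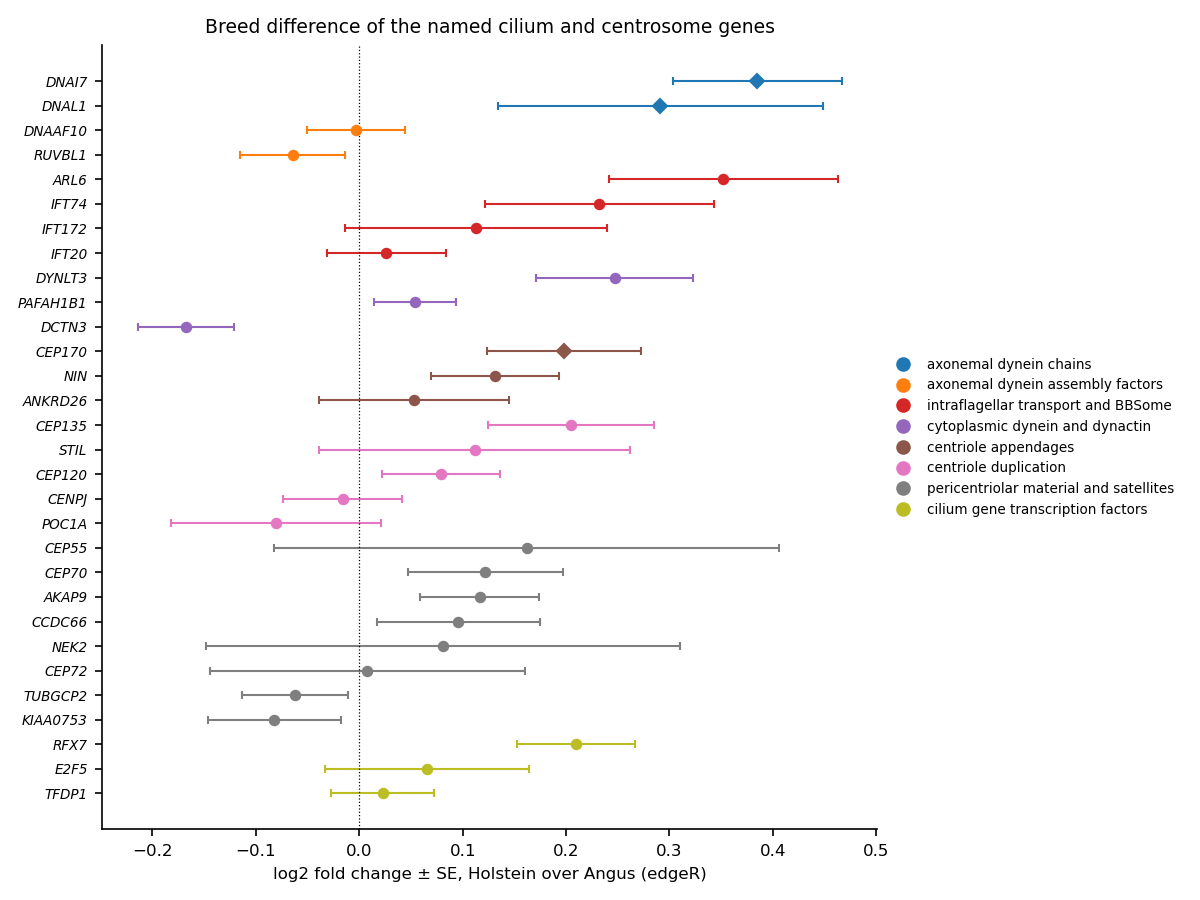
Log2 fold change of Holstein over Angus with its standard error in edgeR (horizontal axis) for the 30 named and tested genes of the cilium and centrosome lists, coloured by list, with diamonds for DNAI7, DNAL1 and CEP170. DNAI7 (0.38) and ARL6 (0.35) lie farthest to the right and DCTN3 (-0.17) farthest to the left.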

How the data were processed

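The authors aligned reads to ARS-UCD1.2 with HISAT2, removed unmapped reads, secondary alignments and duplicates (SAMtools, biobambam2), and deposited raw counts of 27607 genes from featureCounts. Gene names came from a shortened supplementary table sorted by fertility, which names 1229 genes. Genes with a CPM above 1 on TMM-scaled libraries in at least 5 heifers were tested. Models with breed and fertility group, and with their interaction, were fitted with edgeR 4.0.16 (R 4.3.3; quasi-likelihood, robust, column sums as library sizes). DESeq2 1.42.0 and limma 3.58.1 served as alternatives. Permutation tests used scipy 1.17.1. Log2 CPM carried a prior count of 0.5. Close pairs were mutual nearest libraries with a coefficient of variation under 0.5 of the median of all pairings, over genes with a mean CPM above 20. On simulated data of 13526 genes, the breed test recovered 12%, 64%, 92% and 100% of genes changed 1.2, 1.5, 2 and 4-fold, with 7 false calls, and the interaction test 0%, 20%, 70% and 90%, with 2 false calls. The simulated libraries were independent and held no close pairs, so these rates need not hold for the heifers here. Correlations were also taken on variance-stabilized counts of DESeq2.

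Members, lists and rules were chosen with earlier results of these data known. Named genes are the 4 genes, up to 3 genes of each list with the smallest breed p and up to 3 with the smallest fertility p, the 5 named genes most like each of the 4, neighbours in the annotation and defining markers. Because names were selected on fertility, no fertility count of a list is given. One gene that the rule takes is not reported here. No sequence is shown. Each breed alone, for 3 correlations, was added after seeing the data.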

Additional observations from a re-analysis of the deposited data

Results flagged for a closer look

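One Angus Fertile heifer stood apart in CCDC34. Heifer 18 had 6.48 CPM, and the next of its group of 5 had 4.56, a gap that was 0.770 of the range of the group (critical value 0.71). Among 16 combinations of gene and group, 1 was singled out in this way, and chance singles out about 1 in 20. Its close pair, Holstein Fertile heifer 10, had the highest CCDC34 value of the study at 7.42 CPM.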

How the results depend on the processing

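The breed log2 fold change of DNAI7 kept its direction under 31 alternatives, between 0.27 and 0.41, and passed an adjusted p of 0.05 with DESeq2 alone (0.39). That of CEP170 also kept its direction. That of CCDC34 lay near 0 and turned positive with DESeq2 (0.0091), with the close pairs as fixed blocks (0.038) or a random block (0.054) and with log2 total count in the model (0.022), and ranged from -0.097 to 0.043 when each heifer was left out in turn. With fixed blocks the breed value of DNAL1 was -0.040, its fertility value 0.052 and the interaction of CEP170 0.025. Leaving out single heifers moved the interaction from -0.093 to 0.018 for DNAI7 and from -0.19 to 0.0075 for CEP170, and that of CCDC34 from 0.12 (without heifer 10) to 0.43 (without heifer 18).

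Genes at an unadjusted p under 0.05 for breed numbered 231 with fixed blocks, 810 with the random block and 1020 to 2190 with single heifers left out, the most without heifer 1. At an adjusted p under 0.05 DESeq2 gave 10 for breed, and fixed blocks gave 1 for the interaction. For the interaction 935 had an unadjusted p under 0.05 with fixed blocks and 2341 without heifers 10 and 18. For fertility the number was 750 with no filter on low counts, 640 with fixed blocks, 951 with the random block, 125 without heifers 10 and 18, and 142 (without heifer 10) to 580 (without heifer 22) with single heifers left out. The cause of these shifts was not tested. Heifer numbers in the labels are not shared between groups, so the pairs in these models are those found from the counts. With counts as low as 18 for DNAL1, small differences were not detectable at this depth.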
